A study of Mus musculus with 231 samples.

Results

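The mature microRNAs mmu-miR-193a-3p, mmu-miR-193a-5p, mmu-miR-193b-3p and mmu-miR-365-3p were followed in blood of mice that develop Cbfb-MYH11 leukemia. They were taken by name as 4 of the 1863 miRNAs in the training count table, and the same names were read from the 2 tables of normalized values, which list 1895 and 1817 miRNAs. All mice were C57BL/6. In CM mice the conditional Cbfb56M/+ allele, a knock-in of the CBFB-MYH11 fusion of inv(16) acute myeloid leukemia (AML), was recombined by Mx1-Cre, a recombinase under an interferon-driven promoter that is active in many hematopoietic and other cells. Recombination was triggered by 7 injections of poly(I:C) at 14 mg/kg, at an age of 6 to 8 weeks. Ctrl mice were age-matched littermates that received the same poly(I:C), so both groups carry any effect of the injections. The labels say that they lacked the transgene, whereas the study's methods name littermates with the Cbfb56M/+ allele, a floxed miR126 allele or both, and no Mx1-Cre among them, so Ctrl mice may carry the unrecombined allele. The genotype codes (CHW in CM, and HW, CW or WT in Ctrl) are not spelled out in the labels. Small RNA of peripheral blood mononuclear cells (PBMC) was sequenced monthly from month 0. The training cohort held 53 libraries of 7 CM mice (4 female, 3 male) and 76 libraries of 7 Ctrl mice (2 female, 5 male), with 1792809 to 7958411 miRNA counts each. The running numbers in the sample names of CM mouse 3334 and Ctrl mouse 3335 cross between months 5 and 6, and whether their later libraries were exchanged was not settled, so the fits were repeated without both mice. The validation cohort held 60 libraries of 10 CM mice and 42 of 6 Ctrl mice. In blood, fewer cells of a type and less miRNA per cell cannot be told apart.

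A microRNA hairpin yields a 5p and a 3p arm, and the arm loaded into Argonaute recognizes messenger RNAs mainly through its seed, bases 2 to 8. The miR-193 family and miR-365 lie side by side as a pair of clusters, Mir193a with Mir365-2 and Mir193b with Mir365-1. In hematopoiesis miR-193a and miR-193b are known as repressors of KIT, the stem cell factor receptor of progenitor cells, and both have been described as suppressors of AML. In these data the members did not move together. Summed over months 1 to 6, miR-193a-3p was lower in CM mice, while miR-193b-3p and miR-365-3p were higher, so the label of leukemia suppressor is from their literature and does not stand for a shared direction here.

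The mature sequences are shown (the prefix mmu, for mouse, is left out) because they decide which members can share targets and which reads can be told apart. They were taken from RefSeq (GRCm38.p6), where all 4 members and the 3 partner arms were found, and the capitals mark the seed.
miR-193a-3p: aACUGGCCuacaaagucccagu
miR-193b-3p: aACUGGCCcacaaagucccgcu
miR-365-3p: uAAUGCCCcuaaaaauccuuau
miR-193a-5p: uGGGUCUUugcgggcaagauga
miR-193b-5p: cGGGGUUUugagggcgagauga
miR-365-1-5p: aGGGACUUuugggggcagaugug
miR-365-2-5p: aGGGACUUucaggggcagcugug

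The 3p arms of the miR-193 hairpins share the seed ACUGGCC, which no other mouse miRNA of the table carried. They were identical at 19 of 22 positions and differed by U9C, A20G and G21C (miR-193a-3p base first, positions from 1 at the 5′ end). The seed AAUGCCC was found in miR-365-3p alone. On GRCm38.p6, all on the plus strand, miR-193a-3p lies at chr11:79712009-79712030, miR-193a-5p at chr11:79711975-79711996 and miR-193b-3p at chr16:13449570-13449591. One identical miR-365-3p sequence is encoded by 2 hairpins, at chr16:13453895-13453916 (Mir365-1) and chr11:79726467-79726488 (Mir365-2). The hairpins Mir193b and Mir365-1 stand 4238 bases apart on chromosome 16, and Mir193a and Mir365-2 stand 14365 bases apart on chromosome 11. A miR-365-3p read therefore cannot be assigned to a cluster, whereas the 5p arms miR-365-1-5p and miR-365-2-5p differ by U10C, G11A and A19C and can be.

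The 2 training tables counted miR-365-3p differently, and this touches each of its values. One table holds raw counts, and from the other, of counts-per-million values (CPM), whole reads were recovered, called recovered reads here. The ratio of raw counts to recovered reads for miR-365-3p fell into separate ranges, from 0.00370 to 0.265 in 62 libraries and from 0.721 to 0.995 in 67. Low ratios were seen in 23 of 53 CM libraries (43.4%) and 39 of 76 Ctrl libraries (51.3%), and all 7 G numbers, a label field whose meaning is not given, held both kinds. In contrast, the ratio for miR-193b-3p ran from 1.02 to 1.75 with a median of 1.10. Across all training libraries the 2 tables gave Pearson's r of log2(CPM + 1) of 0.437 for miR-365-3p, 0.990 for miR-193b-3p, 0.975 for miR-193a-3p and 0.959 for miR-193a-5p. A low r between the tables went with the number of loci. Of 267 miRNAs with a mean above 50 counts and a known number of loci, 19 of 21 with more than 1 locus had an r under 0.6 (90.5%), against 9 of 246 with 1 locus (3.66%). Why the tables differ was not tested, and the fold changes of miR-365-3p are given in both countings, while most of its levels are given in recovered reads only.

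**Figure D1:**
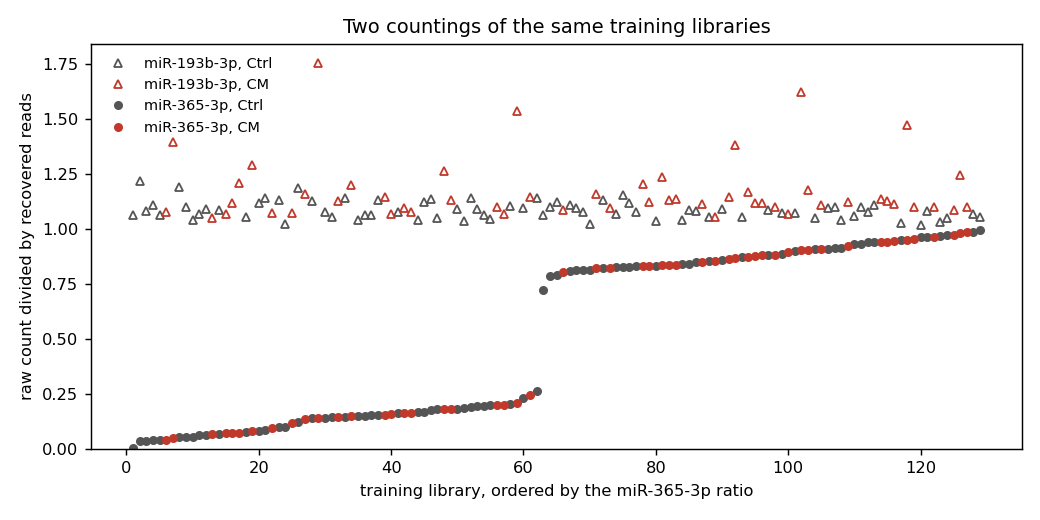
Ratio of raw counts to recovered reads in each of the training libraries, 53 CM and 76 Ctrl (vertical axis), ordered by the ratio of miR-365-3p (circles), with miR-193b-3p as open triangles. Circles stand in a low range up to 0.265 and a high range from 0.721, while triangles stay between 1.02 and 1.75.

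The members differed widely in abundance. Both miR-193a arms were at the limit of detection. MiR-193a-3p had 0 to 11 raw counts per library with a median of 2, 0 in 29 libraries and 3 or fewer in 97, and miR-193a-5p had 0 to 5 with a median of 1 and 0 in 56. MiR-193b-3p had 45 to 2140 counts with a median of 191. For miR-365-3p the median was 230 raw counts (range 1 to 2197) or 453 recovered reads (range 12 to 7736). A count of 0 allows up to 3 counts, so a single library says little about miR-193a, and sums over libraries are used below. These limits cover counting error only.

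Before induction, at month 0, the groups overlapped for each member. MiR-193b-3p stood at 28.1, 32.9 and 45.9 CPM (lowest, median and highest of 7 CM mice, raw counts scaled by TMM) and at 22.6, 39.6 and 72.04 CPM in 7 Ctrl mice. MiR-365-3p, in recovered reads, stood at 50.4, 81.1 and 233 CPM in CM and 55.7, 81.9 and 146 CPM in Ctrl. Neither was called in edgeR's quasi-likelihood test: the log2 fold change of CM over Ctrl was −0.13 (SE 0.247, adjusted p = 0.855) for miR-193b-3p and −0.03 (SE 0.309, adjusted p = 0.973) for miR-365-3p in recovered reads. In raw counts miR-365-3p had −0.24 (SE 0.744, edgeR adjusted p = 0.923). Of all 478 miRNAs tested at month 0, 0.209% were called at an adjusted p under 0.05, and no member was. MiR-193a-3p had 24 counts among 30002410 in CM and 29 among 33559038 in Ctrl, or 0.800 and 0.864 CPM.

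In the first months after induction the median of miR-365-3p was higher in CM mice, while miR-193b-3p was called at neither month 1 nor month 2. With 1 mouse left out at a time, the log2 fold change of miR-193b-3p in raw counts ran from 0.35 to 0.58 at month 1. At month 2 it ran from −0.07 to 0.68, and from −0.24 to 0.60 in recovered reads. MiR-365-3p was called higher at month 1 in recovered reads. It stood at 91.6, 149 and 188 CPM in CM against 63.2, 85.99 and 169 CPM in Ctrl, and all 7 CM mice lay above the Ctrl median. Its log2 fold change was 0.61 (SE 0.223, edgeR adjusted p = 0.0453) in recovered reads, where 31.4% of miRNAs were called, and 0.96 (SE 0.704, adjusted p = 0.327) in raw counts, where 27.5% were called and no member was. The recovered call was lost when any of 9 of the 14 mice was left out, and without both mice 3334 and 3335 (0.58, adjusted p = 0.0803). At month 1, 2 of 7 CM libraries and 4 of 7 Ctrl libraries had the low ratio between the tables, so the raw values of miR-365-3p carry that imbalance. At month 2, where 13.5% of miRNAs were called in raw counts and no member was, 5 of 6 CM mice had more miR-365-3p in recovered reads than every Ctrl mouse, with 72.9 to 174 against 4.85 to 94.9 CPM. The log2 difference was 0.99 (SE 0.394) with an edgeR adjusted p of 0.0914, and 1.32 (SE 0.787, adjusted p = 0.257) in raw counts. The Ctrl value of 4.85 CPM came from mouse 3349, the smallest training library, with 12 recovered reads, and without that mouse the value in recovered reads was 0.75 (adjusted p = 0.0109).

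At month 3 the groups stood apart for miR-365-3p. In recovered reads it stood at 110.5, 145 and 182 CPM in 7 CM mice and at 68.9, 82.99 and 100.7 CPM in 7 Ctrl mice, with no overlap. The log2 fold change was 0.87 (SE 0.152, edgeR adjusted p = 0.000938) beside a background of 27.8% of miRNAs called. It stayed between 0.81 and 0.95 with each mouse left out in turn. The call was lost in 2 of 18 alternatives, 1 fit over all libraries among them (edgeR adjusted p up to 0.219). Only G3 held libraries of both groups in this month, so group and G number can hardly be told apart. In raw counts the log2 fold change of miR-365-3p was 1.59 with a larger error (SE 0.762, edgeR adjusted p = 0.141). MiR-193b-3p stood at 27.9, 39.0 and 95.3 CPM in CM and at 24.1, 27.6 and 37.8 CPM in Ctrl, and 4 of 7 CM mice lay above every Ctrl mouse. It was the 1 member called in raw counts (log2 fold change 0.77, SE 0.255, edgeR adjusted p = 0.0414), where 22.0% of miRNAs were called. In recovered reads it was 0.70 with an adjusted p of 0.0562, and the raw call was lost when any of 10 of the 14 mice was left out. Without both mice 3334 and 3335 it was called in both countings, with 0.87 (edgeR adjusted p = 0.0348) in raw counts and 0.86 (adjusted p = 0.0334) in recovered reads.

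From month 4 single CM mice set the values. At month 4 mouse 3338, in its last library, had 141 CPM of miR-193b-3p and 1006 CPM of miR-365-3p in recovered reads, while the CM medians were 42.5 and 138.1 CPM. The log2 fold changes were 1.32 (SE 0.468, edgeR adjusted p = 0.163) and 1.45 (SE 0.509, adjusted p = 0.142), against a background of 0.837% of miRNAs called. Without mouse 3338 they were 0.71 and 0.41, and without mice 3334 and 3335 miR-193b-3p was called (1.90, edgeR adjusted p = 0.0478). At month 5 the values were 0.47 (SE 0.375) for miR-193b-3p and 0.39 (SE 0.287) for miR-365-3p in recovered reads. At month 6 they were 2.13 (SE 0.671, edgeR adjusted p = 0.438) and 2.91 (SE 0.804, adjusted p = 0.222), carried by mouse 3341, and without it they were 0.30 and 0.37. In months 5 and 6 edgeR called 0.0% of all miRNAs, with 21.6% and 6.98% of them at an unadjusted p under 0.05. In raw counts miR-365-3p had 1.61 (SE 0.816, edgeR adjusted p = 0.320) at month 4, 0.38 (SE 0.942, adjusted p = 0.836) at month 5 and 1.54 (SE 0.702, adjusted p = 0.681) at month 6. The CM group shrank from 7 libraries at month 0 to 5 at month 6.

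**Figure D2:**
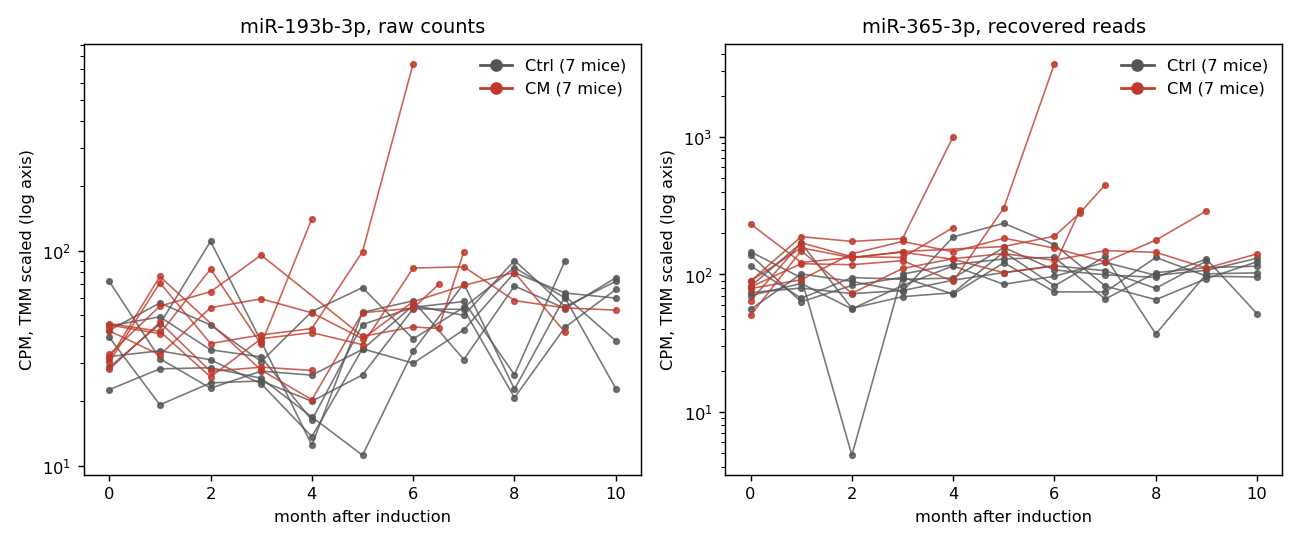
CPM on a log axis against month for each training mouse (CM red, Ctrl gray), miR-193b-3p from raw counts and miR-365-3p from recovered reads. At month 3 the CM values of miR-365-3p (110.5 to 182) lie above all Ctrl values, and from month 4 the lines of mice 3338 and 3341 leave the others, up to 740 CPM of miR-193b-3p and 3419 CPM of miR-365-3p.

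In mouse 3341 the largest values came late in its course. Its miR-193b-3p stood at 30.3, 70.9, 37.0, 40.6, 43.5, 98.9 and 740 CPM in months 0 to 6. Its miR-365-3p in recovered reads stood at 81.1, 120 and 117.8 CPM in months 0 to 2, within the CM range at month 3, and at 89.2, 305 and 3419 CPM in months 4 to 6. Both stayed near the other mice until month 4 and were far above them at month 6, its last library. The raw table held 377 counts of miR-365-3p in that library against 7736 recovered reads, so its size there depends on the counting. Mouse 3338 had 45.1, 41.2, 82.2, 36.7 and 141 CPM of miR-193b-3p in months 0 to 4, and 89.4, 188, 174, 182 and 1006 CPM of miR-365-3p in recovered reads. In Ctrl mice miR-193b-3p had a median of 27.6 CPM at month 3, 53.7 CPM at month 6 and 63.1 CPM at month 10, so the control level itself was not constant over the course.

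**Figure D3:**
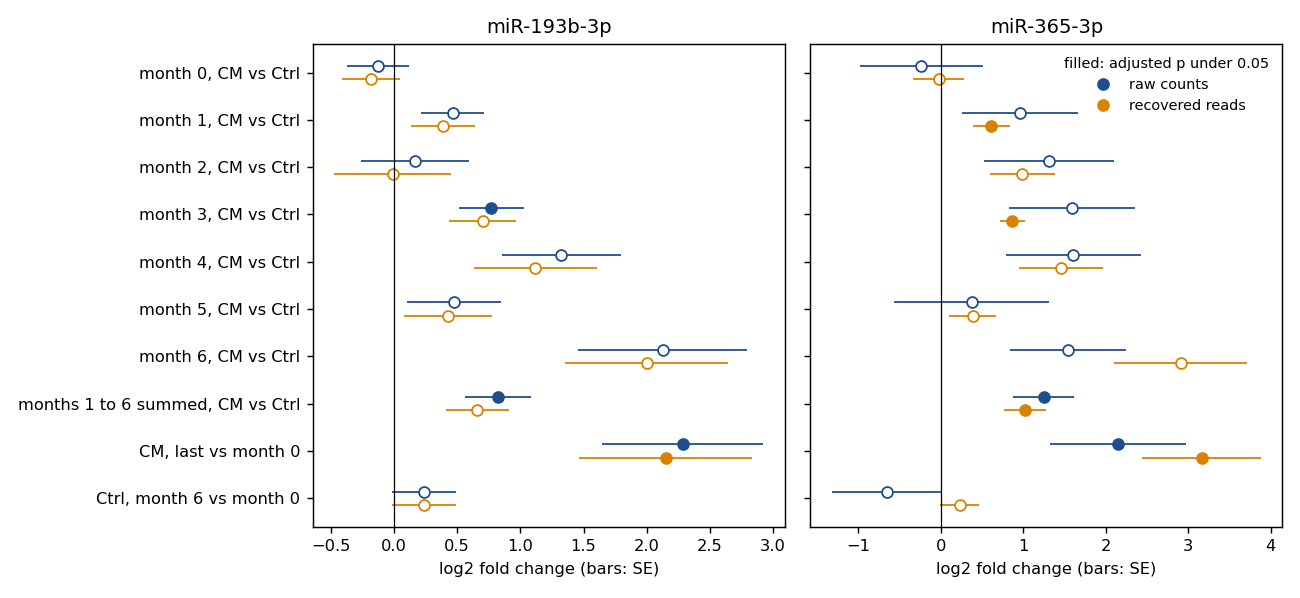
Log2 fold change with its SE (horizontal bars) of CM over Ctrl, and of late over month 0 libraries within each group, in raw counts (blue) and recovered reads (orange), filled where the edgeR adjusted p was under 0.05. For miR-365-3p in recovered reads the points are filled at months 1 and 3, in the sums over months 1 to 6 and in the last CM library. The difference between the CM and the Ctrl change is not drawn.

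To read the low members, counts were summed per mouse over months 1 to 6, with 4 to 6 libraries for each CM mouse and 6 for each Ctrl mouse. MiR-193a-3p was lower in CM. It had 0.114, 0.217 and 0.509 CPM (of all miRNA counts summed) in CM and 0.487, 0.628 and 0.948 in Ctrl (lowest, median and highest of 7 mice). All 7 CM mice lay below the Ctrl median and 5 below every Ctrl mouse. The totals were 50 counts among 171623745 in CM and 140 among 202624948 in Ctrl. On the log2 scale CM differed from Ctrl by −1.20 (SE 0.283, edgeR adjusted p = 0.00695) in raw counts, where 27.1% of 775 miRNAs were called, and −1.21 (SE 0.297, adjusted p = 0.00707) in recovered reads, where 30.8% of 751 were called. With each mouse left out in turn it stayed between −1.36 and −1.03 in raw counts and was called each time. It rests on 2 to 13 counts per CM mouse and 13 to 27 per Ctrl mouse. With a CM median of 6 counts, it passed the filter for testing through the Ctrl mice, where it is higher. MiR-193a-3p stayed called in all 21 alternatives that tested it, but 14 of these only left out a mouse and kept the same filter. They therefore do not bear on this limit. Fits without that filter do, and it stayed called in them. Alternatives in which it was not tested are left out of this count.

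The counts of miR-193a-3p were lower in CM from the first months. Over months 1 to 3, where it was under the filter for testing, CM mice had 32 counts among 90190755 and Ctrl mice 91 among 101635251, and 6 of 7 CM mice lay below every Ctrl mouse. In single months it was under the filter too. Without that filter the month 1 value was −1.51 (SE 0.525, edgeR adjusted p = 0.0913), with all 7 CM mice below the Ctrl median. The sequence of miR-193b-3p differs from it at 3 bases only, and whether reads of one were counted as the other was not tested. Across libraries their CPM values had an r of −0.02 over all training libraries (raw counts).

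The other arm of the same hairpin gave no such call. MiR-193a-5p had 37 counts in CM and 43 in Ctrl over months 1 to 6, or 0.0621, 0.301 and 0.401 CPM in CM and 0.101, 0.246 and 0.312 in Ctrl. It was under the filter, and without the filter its log2 fold change was 0.06 (SE 0.421, edgeR adjusted p = 0.951). As both arms come from 1 hairpin, their ratio does not depend on library scaling. The log2 ratio of 5p to 3p counts, with 0.5 added to each, averaged −0.39 ± 1.38 in CM and −1.70 ± 0.60 in Ctrl (SD, n = 7 each). The difference of 1.31 had p = 0.0425 in a two-sided exact permutation test, but CM values ran from −2.32 to 1.58 and overlapped the Ctrl range of −2.40 to −0.87. Leaving out 1 mouse moved the difference between 0.98 and 1.63 and lost the call in 10 of 14 cases, with exact permutation p up to 0.0851.

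The chromosome 16 member miR-193b-3p was higher in CM. It had 30.8, 50.3 and 113.6 CPM in CM and 23.7, 28.97 and 48.2 in Ctrl. All 7 CM mice lay above the Ctrl median and 4 above every Ctrl mouse, and the totals were 10469 and 6841 counts. Its log2 fold change was 0.82 (SE 0.261, edgeR adjusted p = 0.0305), and it was 0.66 (SE 0.251, adjusted p = 0.0559) in recovered reads. The call was lost without CM mouse 3341 (0.61, adjusted p = 0.0548) or without any of the Ctrl mice 3339, 3342, 3346 and 3350 (adjusted p up to 0.0681), and with sex as a covariate (0.64, adjusted p = 0.0739). Over months 1 to 3 it was 0.58 (SE 0.219, edgeR adjusted p = 0.0495) in raw counts and 0.44 (SE 0.225, adjusted p = 0.128) in recovered reads.

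Its partner arm separated the groups more widely. MiR-193b-5p had 1.17, 1.65 and 4.01 CPM in CM and 0.347, 0.562 and 0.825 in Ctrl. All 7 CM mice lay above every Ctrl mouse, and CM libraries held 400 of its counts in all. This was a log2 fold change of 2.04 (SE 0.316, edgeR adjusted p = 0.000772) in raw counts and 1.93 (SE 0.316, adjusted p = 0.000740) in recovered reads. With each mouse left out it stayed between 1.89 and 2.21. Of the 5p arms of the 2 miR-365 hairpins, miR-365-1-5p on chromosome 16 had 83 counts in CM and 65 in Ctrl, and miR-365-2-5p on chromosome 11 had 7 and 15. Both were under the filter. Without it, the values in raw counts were 0.54 (SE 0.424, edgeR adjusted p = 0.467) and −0.81 (SE 0.615, adjusted p = 0.464). In recovered reads miR-365-1-5p had 76 in CM and 60 in Ctrl, and miR-365-2-5p had 6 and 3. The direction of miR-365-2-5p therefore depends on the counting.

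MiR-365-3p was higher in CM in both countings. In recovered reads it had 117.4, 144 and 384 CPM in CM and 80.99, 99.98 and 137.7 in Ctrl, and each CM mouse exceeded 6 of the 7 Ctrl mice. Its log2 fold change was 1.02 (SE 0.256, edgeR adjusted p = 0.00783), and it stayed called with each mouse left out, between 0.76 and 1.12. In raw counts CM mice had 60.7 to 199 CPM and Ctrl mice 9.89 to 74.4, and the value was 1.25 (SE 0.368, edgeR adjusted p = 0.0226). The low ratio between the tables was seen in 2 of 7, 2 of 6, 2 of 7, 1 of 6, 3 of 5 and 3 of 5 CM libraries in months 1 to 6. In Ctrl it was seen in 4, 3, 4, 3, 4 and 5 of 7, so the raw sums of miR-365-3p carry that imbalance. The raw value is therefore no independent support. With sex as a covariate the log2 fold change was 1.12 (edgeR adjusted p = 0.0848) in raw counts and 0.82 (adjusted p = 0.0364) in recovered reads. Over months 1 to 3 alone it was 0.73 (SE 0.110, edgeR adjusted p = 0.000144) in recovered reads and 1.27 (SE 0.448, adjusted p = 0.0393) in raw counts. In the sums over months 1 to 6, 3 of 3 members tested (miR-193a-3p through its Ctrl counts) were called in raw counts, beside 27.1% of all miRNAs, and 2 in recovered reads, beside 30.8%. Without mice 3334 and 3335 all 3 were called in both countings.

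**Figure D4:**
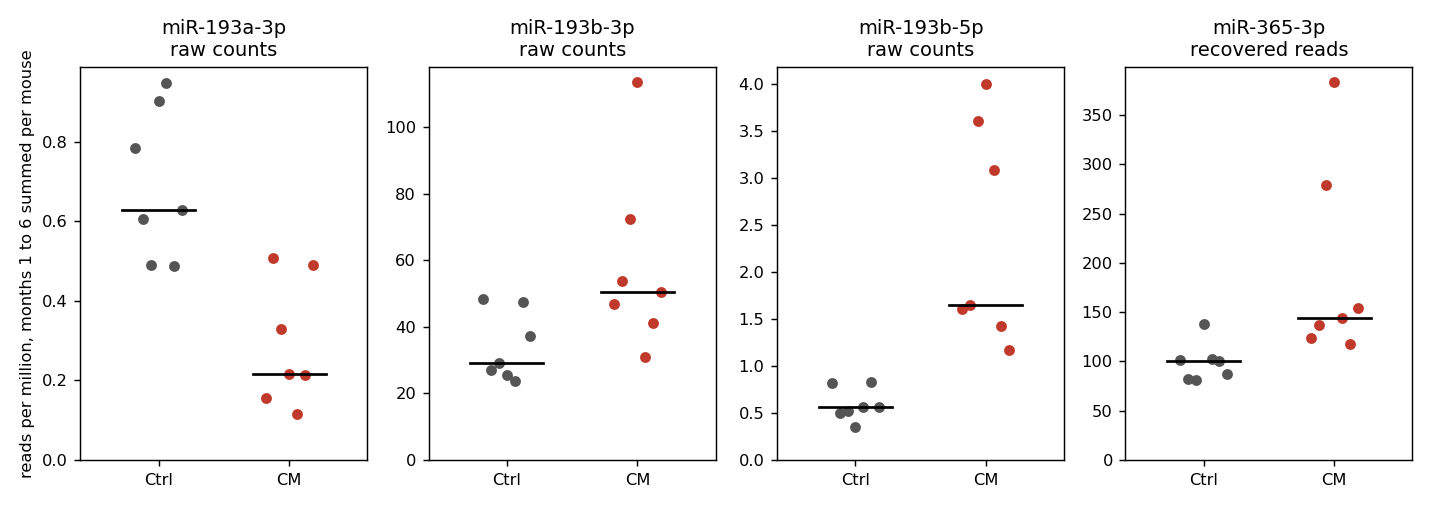
CPM of the counts or reads summed over months 1 to 6 for each mouse, with a bar at the median, for miR-193a-3p, miR-193b-3p and miR-193b-5p (raw counts) and miR-365-3p (recovered reads), CM and Ctrl side by side. CM mice sit low for miR-193a-3p (0.114 to 0.509), above every Ctrl mouse for miR-193b-5p (1.17 to 4.01), and higher with overlap for miR-193b-3p and miR-365-3p.

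The labels of the training cohort carry a G number from 1 to 7, whose meaning is not given. At month 4 no G number held libraries of both groups, at month 3 only G3 did and at month 6 only G5. Within each of these months group and G number can hardly be told apart. Within G numbers, over months 1 to 6, the mean log2 CPM of miR-365-3p was higher in CM in 7 of 7, by 0.34 to 1.51 in recovered reads and 0.39 to 3.11 in raw counts. The raw range carries the imbalance of low ratios given above. MiR-193b-3p was higher in 6 of 7 (−0.03 to 1.48), and miR-193a-3p was lower in 6 of 7 (−0.80 to 0.23). For miR-193a-5p, 4 were higher and 3 lower.

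The last libraries of the CM mice were then set against their month 0 libraries. The fits took the libraries as independent, except where the mouse is given as a block. The last library was taken at month 4 for mice 3338 and 3357, at month 6 for 3341, at 6.5 for 3334, at 7 for 3336, at 10 for 3368 and at 9 for 3370. MiR-365-3p was higher at the end in all 7 mice in recovered reads. It went from 233 to 295 CPM in mouse 3334, whose later libraries are in doubt as given above, from 89.5 to 449 in 3336, from 89.4 to 1006 in 3338 and from 81.1 to 3419 in 3341. In the other 3 mice it went from 64.4 to 219 CPM (3357), from 50.4 to 141 (3368) and from 78.9 to 290 (3370). Of the 7 last values 5 lay above every month 0 value. The log2 fold change was 3.16 (SE 0.719, edgeR adjusted p = 0.00337) in recovered reads, where 24.9% of miRNAs were called higher. It was 1.85 without mouse 3341, 3.58 (adjusted p = 0.00309) without mouse 3334, and 2.24 (SE 0.543, adjusted p = 0.0106) with the mouse as a block. In raw counts, where 23.1% of miRNAs were called higher, it was 2.15 (SE 0.825, adjusted p = 0.04999), 5 of 7 mice were higher, and the call was lost when any of 6 of the 7 mice was left out (2.24, adjusted p = 0.0742, without mouse 3334) and with the block (1.78, adjusted p = 0.0581).

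MiR-193b-3p was higher at the end in 5 of 7 mice, and the size came mostly from 1 of them. It went from 31.3 to 69.6 CPM in mouse 3334, from 32.9 to 98.8 in 3336, from 45.1 to 141 in 3338 and from 30.3 to 740 in 3341, a 24.4-fold difference. In mice 3357, 3368 and 3370 it went from 28.1 to 27.8, from 45.9 to 52.95 and from 42.5 to 41.7 CPM. The log2 fold change was 2.29 (SE 0.637, edgeR adjusted p = 0.0109) in raw counts and 2.15 (SE 0.686, adjusted p = 0.0202) in recovered reads. Without mouse 3334 it was 2.37 (adjusted p = 0.0250) and 2.12 (adjusted p = 0.0337), and without mouse 3341 it was 1.04 (adjusted p = 0.0526) and 0.62 (adjusted p = 0.179). With the mouse as a block it was 1.31 (adjusted p = 0.0916) and 0.92 (adjusted p = 0.200), so the call did not hold in either counting.

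The low arms miR-193b-5p and miR-193a-3p changed in opposite directions. MiR-193b-5p was higher at the end in 7 of 7 mice, from 22 to 197 counts in all, and from 0.351 to 29.03 CPM in mouse 3341 and from 0.541 to 10.4 CPM in mouse 3338. Of the 197 counts, 84 were in mouse 3341 and 38 in mouse 3338. MiR-193b-5p was under the filter of the main fit. Under a looser filter of 10 counts in total its log2 fold change was 3.43 (SE 0.647, edgeR adjusted p = 0.00207). MiR-365-1-5p went from 12 to 49 counts, 25 of the latter in mouse 3341 (2.19, adjusted p = 0.0780). Of the chromosome 11 arms, miR-193a-3p went from 24 counts to 2, lower in 5 mice and 0 in both libraries of the other 2, and miR-365-2-5p went from 2 counts to 0. For miR-193a-3p the same filter gave −3.04 (SE 0.938, edgeR adjusted p = 0.0265). It passed that filter only through its month 0 counts, where it is higher, so this p is no independent support. Neither this fit nor that of miR-193b-5p took the mouse as a block. MiR-193a-5p had 4 and 3 counts.

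**Figure D5:**
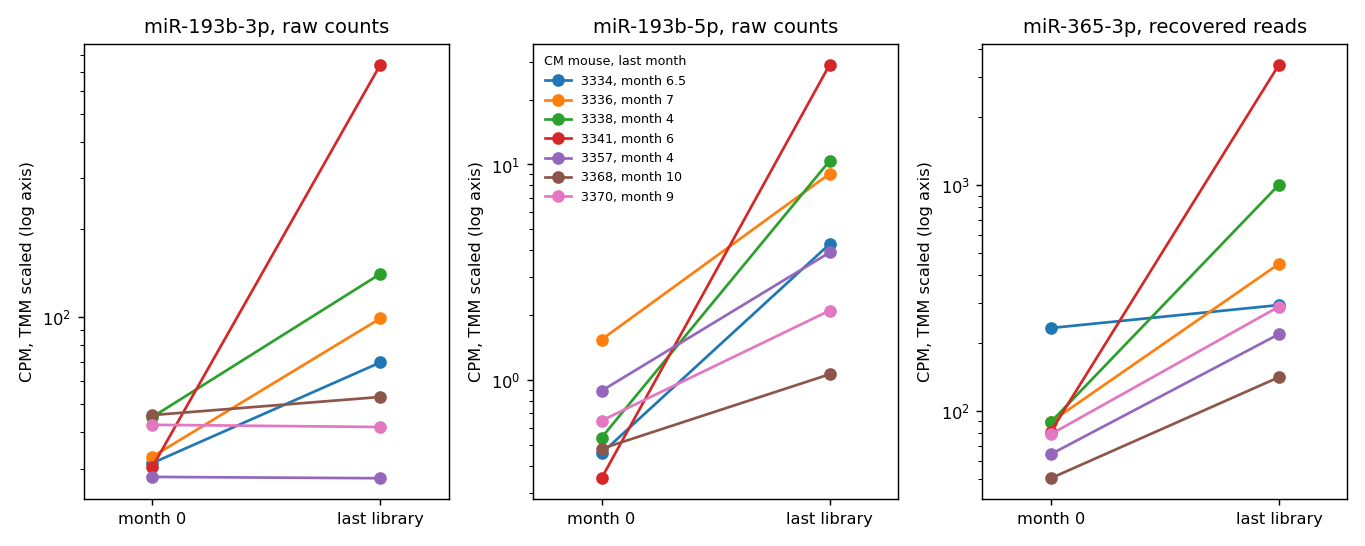
CPM on a log axis at month 0 and in the last library of each CM mouse, joined by a line per mouse, for miR-193b-3p and miR-193b-5p (raw counts) and miR-365-3p (recovered reads). All 7 lines rise for miR-193b-5p and miR-365-3p and 5 of 7 for miR-193b-3p, with mouse 3341 the highest in each panel (740, 29.03 and 3419 CPM).

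Ctrl mice give the background of the course. Between month 0 and month 6 edgeR called 20.5% of miRNAs in Ctrl mice and no member. MiR-193b-3p changed by 0.23 (SE 0.253, adjusted p = 0.537), and miR-365-3p by 0.23 (SE 0.236, adjusted p = 0.495) in recovered reads and −0.65 (SE 0.671, adjusted p = 0.513) in raw counts. MiR-193b-5p held 17 and 13 counts. MiR-193a-3p also had fewer counts in Ctrl at month 6, 8 among 25068173 (0.319 CPM) after 29 at month 0, against 2 among 26559745 (0.0753 CPM) in the last CM libraries. Without the filter its change in CM and in Ctrl differed by −1.61 (SE 1.12, edgeR adjusted p = 0.491), so a steeper fall in CM mice was not detectable.

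The difference between the CM change and the Ctrl change was tested as an interaction. It was 2.90 (SE 0.734, edgeR adjusted p = 0.00784) for miR-365-3p in recovered reads, with 16.9% of miRNAs called, and it held with the mouse as a block (2.06, adjusted p = 0.0318) and without mice 3334 and 3335 (3.41, adjusted p = 0.00396). In raw counts it was 2.80 (SE 1.11, adjusted p = 0.0762). For miR-193b-3p it was 2.07 (SE 0.704, adjusted p = 0.0469) in raw counts, where 14.8% were called, and 1.90 (adjusted p = 0.0629) in recovered reads. That call was lost when any of 11 of the 14 mice was left out, down to 0.81 without mouse 3341, and without mice 3334 and 3335 (2.09, adjusted p = 0.0899), and it was 0.97 (adjusted p = 0.278) with the block. From month 0 to month 1, an interval in which both groups had received poly(I:C), 8.46% of miRNAs were called and no member. The interaction was 0.69 (SE 0.362, edgeR adjusted p = 0.218) for miR-193b-3p and 0.58 (SE 0.387, adjusted p = 0.315) for miR-365-3p in recovered reads, with 1.35 (SE 1.07, adjusted p = 0.439) in raw counts. The last CM libraries were taken at other ages than the month 6 Ctrl libraries, which cannot be told apart from the CM change in this comparison.

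Other miRNAs of the same literature were read from lists. Of 4 KIT regulators of the miR-221/222 group tested, 0 were called by edgeR in the sums or in the last libraries (median log2 fold change −0.21 and −0.38, beside 0.02 and −0.06 over all miRNAs). Over all miRNAs 27.1% were called in the sums, and in the last libraries 23.1% were called higher and 15.9% lower. Of 9 other miRNAs described as leukemia suppressors, 3 fell in the sums and 0 rose, with a median of −0.13, a share of calls near that over all miRNAs. These were miR-139-5p (−0.90, edgeR adjusted p = 0.00264), miR-150-5p (−0.48, adjusted p = 0.0334) and miR-29c-3p (−0.62, adjusted p = 0.00270). In the last libraries 4 fell, among them miR-139-5p (−2.07, adjusted p = 0.000882) and the granulocyte miRNA miR-223-3p (−1.60, adjusted p = 0.00934). In the same comparison 1 rose, miR-34a-5p, a target of p53 (1.98, adjusted p = 0.00814).

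Markers of blood and other cells moved with these comparisons, and their counts of calls stand beside the same shares over all miRNAs (27.1% in the sums, and 23.1% higher and 15.9% lower in the last libraries). The endothelial and progenitor miRNAs miR-126a-3p and miR-126a-5p, 2 of 2 of that list, rose, with a summed level of 310 to 1502 CPM in CM and 143 to 282 in Ctrl over months 1 to 6, and of 156 to 263 at month 0 and 331 to 6969 in the last libraries. Of 4 lymphocyte miRNAs 2 fell in the sums (26827 to 54181 CPM in CM, 44531 to 65682 in Ctrl) and 3 in the last libraries, and of 4 erythroid miRNAs 3 rose in the sums (32350 to 138949 in CM, 38840 to 81249 in Ctrl). In the last libraries 1 erythroid miRNA rose and 1 fell. Of 2 myeloid miRNAs 0 were called in the sums (5479 to 10230 CPM in CM, 4738 to 14305 in Ctrl), and 1 fell in the last libraries. Of the 3 vessel wall miRNAs none was called in either comparison, with 135.6 to 737 CPM in CM and 261 to 764 in Ctrl. Of the 6 skin and epithelial miRNAs 3 fell in the sums (1758 to 2664 in CM, 2058 to 3187 in Ctrl) and 2 in the last libraries. The pan-hematopoietic miR-142a arms, at 53510 to 76757 CPM in CM and 72255 to 82288 in Ctrl, were abundant in all libraries, and 1 of 2 fell in the sums. Of these markers only miR-145a-3p was at 0 in a library. The part of a changed cell mix in the members' values was not tested.

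The miRNAs whose levels ran most like each member over all training libraries were read by Spearman's rho of log2 CPM. For miR-365-3p in recovered reads they were miR-126b-3p (0.59), miR-126a-5p (0.59) and miR-126a-3p (0.58), of 800 miRNAs. In raw counts the highest were miR-132-5p, miR-700-3p and miR-5103 at 0.33 each, of 815, which is far from the recovered list. For miR-193b-3p in raw counts they were miR-31-3p (0.55), miR-700-5p (0.51) and miR-466q (0.46). MiR-193b-3p and miR-365-3p themselves had a Pearson's r of 0.67 over the 53 CM libraries and 0.00 over the 76 Ctrl libraries in recovered reads, with a rho of 0.32 and 0.30, so the larger r in CM goes with the few high libraries. For miR-193a-3p the counts were too few for such a list to be read. These libraries share mice and depth, and the values are descriptions.

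In the validation cohort the differences were not seen at the 1 point that could be tested. Validation points carry numbers whose unit the labels do not give, and at point 5 the libraries of 6 CM and 6 Ctrl mice held 1645456 to 5445215 reads. As recovered reads divided by the library's total, miR-193b-3p stood at 21.6, 32.5 and 38.2 CPM in CM and at 20.0, 41.2 and 75.7 CPM in Ctrl, and miR-365-3p at 66.2, 101.6 and 149 CPM in CM and at 99.9, 110.0 and 127.4 CPM in Ctrl. The deposited values carry another scaling and are higher by about 1 order of magnitude. On that scale miR-193b-3p stood at 213, 341 and 547 in CM and 210.5, 470.1 and 717 in Ctrl, and miR-365-3p at 400.0, 1425 and 2140 in CM and 908, 1240 and 1460 in Ctrl, so the order of its medians depends on the scaling. The groups overlapped for both miRNAs on both scales. On log2 of the deposited values + 1 limma gave −0.28 (SE 0.377, adjusted p = 0.968) and 0.00 (SE 0.352, adjusted p = 0.999), and 0.0% of 930 miRNAs were called, with 54 at an unadjusted p under 0.05. EdgeR on the recovered reads called 0 of 478, with 70 at an unadjusted p under 0.05, and gave −0.34 (SE 0.324) and 0.14 (SE 0.254). Of miR-193a-3p the CM libraries held 0 to 5 reads and the Ctrl libraries 0 to 7, and of miR-193b-5p 0 to 18 and 0 to 7. In the other 90 validation libraries, with 1744 to 76906 reads each, miR-193b-3p had 3 reads in CM and 3 in Ctrl in all, miR-365-3p had 11 and 1, and miR-193a-3p had 6 and 2, too few for a comparison.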

How the data were processed

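The members and the lists were chosen with earlier results of these data known. In the study's methods, small RNA reads were trimmed with cutadapt, aligned with Bowtie and matched to mature miRNAs of miRBase, and normalized with TMM in edgeR. The genome build is mm9 in the methods and GRCm38 in the submitters' processing notes, which was not settled. The deposited training counts are whole numbers per miRNA. The authors also deposited CPM values (a signal scaled by TMM) for both cohorts, from which whole reads were recovered (100.0% of values under 100 reads were whole within 0.1). Recovered training totals were 1376082 to 7520419.

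Counts were tested with edgeR 4.0.16 (quasi-likelihood, TMM, filterByExpr) in R 4.3.3 and validation CPM with limma 3.58.1 on log2(CPM + 1), both with Benjamini-Hochberg adjustment over all miRNAs tested. Tests on recovered training reads were added after seeing the data. Named miRNAs were the 4 members, their partner arms, list members called in the summed and last-library comparisons, and the 3 nearest by rank correlation. Alternatives were DESeq2 1.42.0, other filters and scalings, deposited CPM, sex, 1 fit over all libraries, and each mouse left out. Same-numbered libraries came from the same mouse, so the mouse was tried as a replicate block, although deviations of month 0 and later libraries of a mouse correlated at only −0.11 to 0.14. Replicates were separate mice. The fits were tested on simulated data. Figures used matplotlib 3.10.9.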

Additional observations from a re-analysis of the deposited data

Results flagged for a closer look

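By chance Dixon's test sets 1 mouse apart in about 1 in 20 groups that are normal and independent. The groups here held unlogged CPM and shared libraries, so no excess over that rate is read from them. In 15 of 76 groups of 4 to 10 mice, 1 mouse stood apart from the others by this test. For miR-193b-3p (raw CPM) these were CM mouse 3338 at month 4 (141), CM mouse 3341 at month 5 (98.9) and month 6 (740), and Ctrl mice 3349 at month 2 (110.5), 3335 at month 4 (52.1) and 3350 at month 9 (90.01). For miR-365-3p they were CM mouse 3338 at month 4 (601 CPM in raw counts, 1006 in recovered reads), and in recovered reads CM mouse 3334 at month 0 (233), CM mouse 3341 at month 6 (3419), Ctrl mice 3346 at month 1 (169) and 3342 at month 4 (188), and Ctrl mouse 3349 at month 2, the 1 case of a low value (4.85). For miR-193a-3p they were CM mouse 3336 at month 3 (1.79 CPM) and CM mouse 3370 at month 4 (1.35 CPM), each a few counts.

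The change to the last CM library differed from the change to month 6 in Ctrl mice, by an interaction in edgeR, for miR-193b-3p in raw counts (log2 difference 2.07) and for miR-365-3p in recovered reads (2.90). Neither was called in the other counting (adjusted p = 0.0629 for miR-193b-3p in recovered reads and 0.0762 for miR-365-3p in raw counts). The call of miR-193b-3p was lost when any of 11 of the 14 mice was left out and with the mouse as a block, and miR-193a-3p was under the filter.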

How the results depend on the processing

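Of 724 alternative fold changes of single members, 602 kept their direction and their side of the threshold, 76 lost it, 35 gained it and 11 reversed. Those on recovered reads were chosen after seeing the data. Mice 3334 and 3335 were left out together because their running numbers cross between months 5 and 6. The cause of the shifts was not tested.

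Members called in raw counts went from 0 to 1 at month 1 (deposited CPM, recovered reads), from 1 to 0 at month 3 (no filter, 10 counts in total, sex, 1 fit over all libraries with or without G number), from 0 to 1 at month 4 (without mice 3334 and 3335, 1 fit with or without G number) and from 0 to 1 at month 6 (1 fit with or without G number). In the sums they went from 3 to 1 (deposited CPM, sex), in the last library from 2 to 1 (raw library sizes, without 3334 and 3335, deposited CPM) and to 0 with the mouse as a replicate block, and for the interaction from 1 to 2 (DESeq2) or 0 (raw library sizes, no filter, 10 counts in total, without 3334 and 3335, replicate block). In recovered reads they went from 1 to 0 at month 1 (without 3334 and 3335, sex, 1 fit with or without G number), from 1 to 2 (without 3334 and 3335) or 0 (1 fit) at month 3, from 0 to 1 (without 3334 and 3335, 1 fit) or 2 (with G number) at month 4, from 0 to 2 at month 6 (1 fit with or without G number), from 2 to 1 over months 1 to 3 and from 2 to 1 with the replicate block. The block changed no other call. The arm ratio of miR-193a was 0.99 without mice 3334 and 3335 (exact permutation p = 0.141) and 1.35 over months 1 to 3 (exact permutation p = 0.166).

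MiR-193b-3p at month 2 reversed from 0.17 to -0.0097 in recovered reads and -0.056 with sex, and from -0.0097 in recovered reads to 0.14 and 0.21 in 1 fit without and with G number.

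With 1 mouse left out at a time, members called ran from 0 to 1 (months 1 and 2 in recovered reads, month 3 in raw counts, the change to month 1 in recovered reads), from 1 to 2 (month 3, last library and interaction in recovered reads) and from 0 to 2 (last library and interaction in raw counts). In the sums they ran from 2 to 3 in both countings. The arm ratio ran from 0.98 to 1.63. At month 2 miR-193b-3p ran from -0.070 to 0.68 in raw counts and -0.24 to 0.60 in recovered reads, and at month 5 miR-365-3p ran from -0.11 to 0.81 in raw counts. Sums give CM mice 4 to 6 libraries, and depth leaves both miR-193a arms at a few counts per library.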
